A study of Mus musculus with 9 samples.

Results

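The data describe the lungs that served as controls in a mouse study, 3 arrays out of the 9 in the series. They were taken by their sample labels alone, with no measured value involved in the choice. Each array was hybridised with RNA from lung of C57BL/6 mice, an inbred laboratory strain. The series as a whole asked how the lung transcriptome differs after tail vein injection of exosomes from B16-F10, a mouse melanoma line, and the control lungs are its reference state. The names written inside the 3 files give the time as 0 h. No source used here says what the control mice received, or gives their age or sex. The labels call the samples biological replicates, and speak of 3 mice per time point and of triplicate experiments, without saying whether an array held RNA of a single mouse or of a pool. The spread between arrays may therefore be partly technical. Lungs were stored in an RNA-preserving solution, and total RNA of the whole organ was amplified in a single round of in vitro transcription into biotin-labelled cRNA.

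The lung parenchyma is built from thin alveolar type 1 cells, through which gas diffuses, and cuboidal alveolar type 2 cells, which secrete surfactant, a mixture of lipids and proteins that keeps alveoli open. A dense capillary bed, fibroblasts that lay down elastin and collagen, and resident alveolar macrophages complete the alveolar wall and its surface. The conducting airways are lined by ciliated cells and by secretory club cells, which produce secretoglobins and detoxifying enzymes. RNA of the whole organ holds all of these at once, together with blood, large vessels and any tissue that stays attached at dissection.

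Signals are given below in the order replicates 1, 2 and 3, in the scaled units of the deposited files, in which the mean of an array without its top and bottom 2% of values is 500.1. Differences are on the scale of log2(signal + 16), the range of a gene is its highest minus its lowest value on that scale, and a range of 1 is a 2-fold difference. Folds are ratios of signal + 16. A probe set is the group of oligonucleotides that reads a transcript, and its signal depends on its own sequences as well as on the RNA. The order of genes below is therefore an order of signals and not of molecules. A probe set was counted as detected where the deposited detection p was below 0.05. For comparison with the list counts below, 73.4% of all genes were detected on 3 arrays and 20.5% on none. A range over 1 was reached by 1.70% of genes detected on 3 arrays.

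Of the 22626 probe sets, 16415, 16157 and 16290 were detected on the 3 arrays, and the arrays' median signals were 184, 175.1 and 181.4. Replicate 1 stood apart from the other two. Over the 15459 probe sets detected on all 3 arrays, Pearson's r was 0.979 between replicates 1 and 2, 0.974 between 1 and 3, and 0.991 between 2 and 3, as a description across probe sets that are not independent. More than 2-fold differences were seen for 294 probe sets between 1 and 2, for 364 between 1 and 3 and for 35 between 2 and 3. The array's own control probe sets also differed: the 5′ probe set of 18S ribosomal RNA read 8486, 6274 and 820.3, and the hybridisation spikes, bacterial transcripts added in known amounts, stood 1.27 and 1.53 times higher on replicates 2 and 3 than on replicate 1. The 3′ to 5′ ratio of actin, a measure of RNA integrity, was 1.22, 1.35 and 1.38, and that of Gapdh 0.852, 0.859 and 0.843. The part of these differences in the results was not tested. In the authors' table of the whole series, which gave no value here, the signals of these files stand under sample labels of an exosome group, with those of replicates 1 and 2 exchanged. The group and the replicate numbers used here rest on the sample labels and the names inside the files.

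Among the brightest signals were products of alveolar type 2 and club cells, ribosomal proteins, and actins with proteins that bind them. The 25 genes with the highest mean lay between 13.29 and 13.81 log2 units, with SDs over the 3 arrays from 0.099 to 0.26. Gsn, gelsolin, which severs and caps actin filaments, was first, with signals of 13174, 15569 and 14308. Scgb1a1, the club cell secretory protein, read 11259, 14629.5 and 15127. Tmsb4x, thymosin beta 4, which holds actin monomers in reserve, read 12122, 13848 and 14826. Replicate 1 was the lowest of the 3 arrays for all of these, and the arrays differed by less than 2-fold.

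Epithelial products made up 6 further places among the 25. Surfactant proteins A and D, collectins that bind microbes, were both there. Sftpa1 read 10237, 12506 and 13250.2. Sftpd read 9261, 11522 and 11321. The club cell genes were Cyp2f2, a cytochrome P450, Scgb3a2, another secretoglobin, and Cbr2, the lung carbonyl reductase, at mean log2 values of 13.39, 13.36 and 13.35. Scd1, the desaturase that makes monounsaturated fatty acids, read 9229.5, 10537 and 11346. Its other probe set was far dimmer and had the opposite order, at 1208, 614 and 580.1, so the direction of Scd1 between arrays depends on the probe set.

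The other 16 genes were ribosomal proteins or had general cellular roles. Rps29, Rpl38, Rps28, Rplp2, Rps3a1, Rplp0 and Rpl13a encode proteins of the ribosome, and Eef1a1 is the elongation factor that brings tRNA to it. Actb and Actg1 are the cytoplasmic actins, Fth1 is the heavy chain of ferritin and Npc2 carries cholesterol out of lysosomes. Sparc, a matrix-associated glycoprotein, Tpt1, Itm2b and Akr1a1, an aldehyde reductase, completed the list. Replicate 1 was lowest in 25 of the 25, against 43.9% of all genes detected on 3 arrays. Replicate 3 was highest in 18, against 34.6%, and replicate 2 in 7, against 29.9%. The same array was low over the 155 probe sets of the brightest 1%, whose median deviations from the mean of the 3 arrays were -0.16, 0.07 and 0.08.

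**Figure D1:**
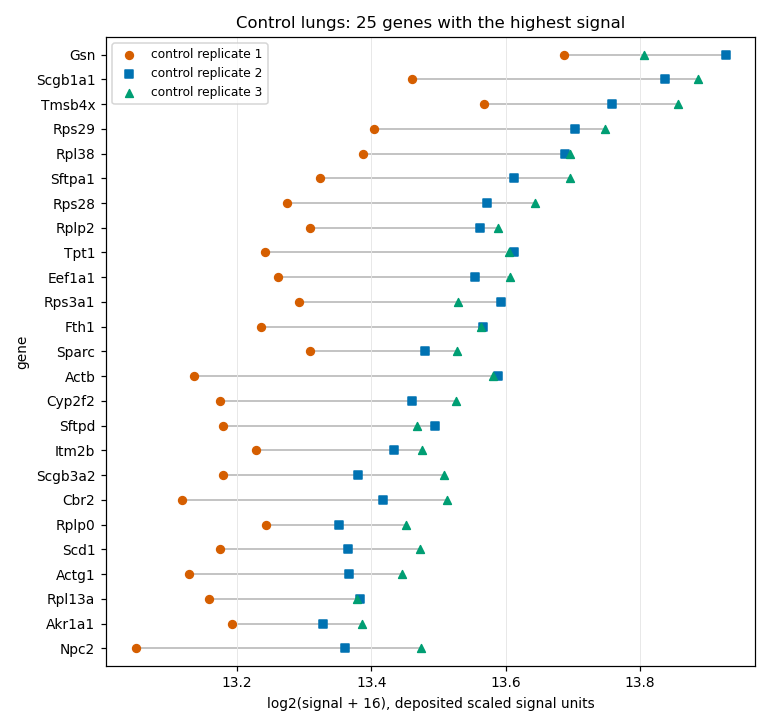
The 25 brightest genes of the control lungs in order of their mean, with log2(signal + 16) on the horizontal axis and 1 symbol for each of the 3 arrays; the axis does not start at 0. Replicate 1 is the leftmost symbol for every gene, and gelsolin, Scgb1a1 and thymosin beta 4 head the list.

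Probe sets that match several genes were not counted under a gene, and they hold some of the brightest transcripts. Of the 25 brightest probe sets 4 match several genes, and of the brightest 50 it is 10. The adult alpha globins, which carry oxygen in red cells, share 3 probe sets, and the brightest read 8015, 10096 and 11056. The dimmest of these had another order, at 4106, 3968 and 3318, so the direction of the alpha globins between arrays depends on the probe set. The beta globins share one that read 7837, 10077 and 9453. The probe sets that match a single alpha globin were not detected on any array: Hba-a1 read 1, 3.7 and 3.5, and Hba-a2 read 6.5, 6.1 and 36.2. In the same way Rpl39, a ribosomal protein, read 185, 220 and 224 with its own probe set. The one it shares with Gm32211 read 9393, 11140.3 and 10801. A low signal for a member of such a family is therefore a statement about the probe set.

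Alveolar type 2 genes were among the brightest groups of markers. All 18 measured markers were detected on 3 arrays, where 73.4% of all genes were, and their median level was 12.49 log2 units against 8.18 for all genes. Sftpc, surfactant protein C, read 8246, 10881 and 11129.5. The dimmest member was Slc4a4, a bicarbonate transporter, at 156, 93.8 and 131. Replicate 1 was lowest in 14 and replicate 3 highest in 15 of the 18 markers, against 43.9% and 34.6% of all genes. The differences were small: the median range was 0.31, beside 0.28 for all genes, and no marker had a range over 1, where 1.70% of genes detected on 3 arrays had. After quantile normalisation, which gives all arrays the same distribution, the median deviations of the 3 arrays spanned 0.10 in place of 0.28. In RNA of a whole organ, fewer cells of a type and less RNA per cell cannot be told apart.

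The widest range among the type 2 markers was that of Etv5, a transcription factor of these cells, with 368, 471 and 619. Muc1, a membrane mucin, read 2389, 2781 and 3379. Slc34a2, a phosphate transporter, read 7298, 9203 and 9996. These 3 were highest on replicate 3 and lowest on replicate 1, and Slc4a4 was lowest on replicate 2. Abca3, which pumps lipid into the lamellar bodies, was nearly level, at 3637, 3523 and 3773.

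Alveolar type 1 markers had the same high and low arrays. All 15 were detected on 3 arrays, at a median of 11.83 log2 units. Hopx, a homeodomain protein without DNA binding, read 8409, 10441 and 11258. Ager, the receptor for advanced glycation end products, read 7169, 8792 and 10163. Cav1, the coat protein of caveolae, read 7538, 8552 and 9434. Replicate 3 was highest in 14 of the 15 and replicate 1 lowest in 13, against 34.6% and 43.9% of all genes. After quantile normalisation the median deviations of the 3 arrays spanned 0.30 in place of 0.35. The widest ranges were 0.71 for Clic3, 0.66 for Rtkn2, 0.63 for Cldn18, a tight junction protein, and 0.50 for Krt7, a keratin of simple epithelia. Emp2, a membrane protein of these cells, was nearly level, at 7363, 7624 and 7789.7.

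In the airway epithelium, secretory markers were bright, with a median of 11.55 log2 units. Of 19 measured, 16 were detected on 3 arrays, 2 on some and 1 on none, where 20.5% of all genes were detected on none. The secretoglobins, Cyp2f2 and Cbr2 led the list. The airway defence proteins had the widest ranges. Reg3g, an antibacterial lectin, read 704, 359 and 876. Bpifa1, a surface-active protein secreted in the airways, read 7812, 3652 and 6829. Its relative Bpifb1 read 1822, 916 and 1943. These 3 had a range over 1, with replicate 2 below the other two in each. The gel-forming mucin Muc5b read 394, 478 and 751 and was highest on replicate 3. Muc5ac, the mucin of goblet cells, was detected on no array, at 4.2, 11.9 and 13.6. Spdef, the factor that drives goblet cell differentiation, and Agr2, which folds mucins, were the members detected on some.

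Ciliated cell genes were dimmer. The 11 measured markers had a median of 7.69 log2 units, and 9 were detected on 3 arrays. Tubb4b, a tubulin, read 4291, 3823 and 4159.5. Tppp3, which bundles microtubules, read 3596, 3817 and 4542. Foxj1, the master regulator of motile cilia, read 659, 484 and 678. Replicate 2 was lowest in 7 of the 9, against 26.8% of all genes. Dnah5, a heavy chain of axonemal dynein, was the member with a range over 1, at 119.6, 51.4 and 102. Rfx2, a transcription factor, and Dnah11, another dynein, were not detected on any array at 94.3, 126 and 125, and 77.7, 108 and 108. Rfx3, which was detected on all 3, was dimmer than both, at 22.5, 16 and 31.3.

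Markers of basal and squamous epithelium were mostly undetected. Of 11 genes, 9 were detected on no array, where 20.5% of all genes were. Krt5, the keratin of basal cells, was among these, at 50.1, 24.4 and 31.5, and so was its partner Krt14, at 11.4, 12.5 and 10.2. Trp63, the transcription factor that maintains basal cells, was detected on 3 arrays at 18.5, 25.3 and 36.6. On replicate 1 its signal lay below that of the undetected Krt5. Of 9 neuroendocrine markers 4 were detected on 3 arrays, where 73.4% of all genes were. They were led by Ddc, which makes monoamines, at 164, 199.6 and 161. Chga, the chromogranin of secretory granules, was detected on none, at 9.2, 11.6 and 28.3.

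Endothelial markers were bright and mostly level. Of 28 blood vessel markers 27 were detected on 3 arrays, with a median of 11.59 log2 units and a median range of 0.24. Ramp2, a subunit of the adrenomedullin receptor, read 5429, 6968 and 7129.7. Its partner Calcrl read 5659, 5375 and 5452. Cldn5, the endothelial claudin, read 4851, 4863 and 4214. The median deviations of the list on the 3 arrays spanned 0.11 log2 units, and no array was low or high throughout.

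Ednrb, an endothelin receptor, was the endothelial marker with a range over 1. Its brightest probe set read 987, 313 and 345, so that replicate 1 lay well above the others, but a further probe set read 170.1, 187 and 205 and did not show this. Sox17, a vascular transcription factor, read 1549, 1858 and 1098, with replicate 3 lowest. Car4, an anhydrase of the capillary surface, read 3421, 2428 and 3874, with replicate 2 lowest, and Aplnr, the apelin receptor, read 3007, 4586 and 3634, with replicate 2 highest. Gja5, the connexin of arterial endothelium, was not detected, at 35.2, 5.6 and 3.1. Of 6 lymphatic markers, Lyve1, Pdpn, Flt4 and Reln were detected on 3 arrays. Prox1, which specifies lymphatic identity, was detected on none, at 6.1, 8.2 and 0.8.

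Fibroblast and matrix genes were all present. The 24 markers were detected on 3 arrays at a median of 11.54 log2 units. Mgp, which inhibits calcification of matrix, read 8559.7, 10915 and 10593. Inmt, an amine methyltransferase, read 8524, 10872 and 10452. Gpx3, secreted glutathione peroxidase, read 6709.6, 8512 and 8206. These bright members were lowest on replicate 1, like other bright genes. The 4 with the widest range were all highest on replicate 1. Eln, the precursor of elastin, read 915, 499.7 and 386. Col13a1, a membrane collagen, read 796, 561 and 453. The others were G0s2, a lipase inhibitor, with a range of 0.82, and Lum, a collagen-binding proteoglycan, with 0.82.

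All 21 smooth muscle and pericyte genes were detected on 3 arrays as well. Acta2, smooth muscle actin, read 4064, 4416 and 3132. Tagln, transgelin, read 2709, 2809 and 2186. Pdgfrb, the receptor that marks pericytes, read 2577, 2829 and 2175. Replicate 3 was lowest in 14 of the 21, against 29.3% of all genes, and highest in none. The median deviations were 0.18, 0.12 and -0.22. Cnn1, calponin, had the widest range, at 671, 503 and 353, followed by Actg2, the enteric actin, at 684, 514 and 379.6. Without replicate 3 the median deviations of the other 2 arrays lay 0.0088 apart.

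Alveolar macrophage markers were detected in full, 16 of 16, at a median of 9.42 log2 units. Chil3, a chitinase-like protein that these cells secrete, read 7511, 8337 and 9302. The widest range was that of Marco, a scavenger receptor for particles, with 132, 196 and 464, a 3.23-fold difference between replicates 3 and 1. Itgax, the integrin CD11c, read 601, 775 and 974. Replicate 3 was highest in 14 of the 16 markers, against 34.6% of all genes. Fabp4, a fatty acid binding protein shared with fat and capillary cells, was highest on replicate 1, at 1929, 1053 and 1179.6. Siglecf, a lectin of alveolar macrophages and eosinophils, was nearly level, at 276, 243 and 271.

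Among 26 markers of monocytes, interstitial macrophages and dendritic cells, 25 were detected on 3 arrays. Lyz1, a lysozyme, read 8356, 9745 and 10572. H2-Aa, a class II antigen, read 5216, 6345 and 6164. Csf1r, the receptor for macrophage colony-stimulating factor, read 3083, 3144 and 3499. The list as a whole was level, with median deviations that spanned 0.054 log2 units. Only Nr4a1, a nuclear receptor of patrolling monocytes that many stimuli induce, and Cx3cr1, the fractalkine receptor, had a range over 1. Nr4a1 read 1567, 516 and 457. Cx3cr1 read 258, 117 and 171. Both were highest on replicate 1.

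Neutrophil genes were detected on 3 arrays for 15 of 19, or 78.9%, close to the 73.4% of all genes. S100a8, a subunit of calprotectin, read 4099.6, 6214 and 4839.9, and its partner S100a9 read 3618, 5129 and 3989. Ngp, a granule protein, read 1441, 2112 and 1274. Replicate 2 was the highest for all 3. Lcn2, which binds bacterial siderophores, read 2046, 2405 and 2502. Ptgs2, an inducible cyclooxygenase that is not confined to neutrophils, had the widest range, at 661, 262 and 379, with replicate 1 highest. Elane, Cxcr2 and Trem1 were detected on no array.

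Mast cell, basophil and eosinophil markers were mostly undetected, with 11 of 16 detected on no array, where 20.5% of all genes were. These included the mast cell proteases Cma1, at 35.2, 42.5 and 43, and Mcpt4, at 16.9, 11 and 9.7. The 3 detected on 3 arrays were Kit, the receptor for stem cell factor, at 2081, 2174 and 1814, Gata2 and Hdc. Kit and Gata2 are also expressed in lung endothelium.

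Lymphocyte markers were mostly dimmer. Among 21 B and plasma cell genes 19 were detected on 3 arrays. Replicate 1 was lowest in 14 of the 18 whose shown probe set was detected on 3, against 43.9% of all genes. Cd74, the invariant chain of class II, is shared with other antigen-presenting cells and read 7153, 8515 and 9163. Ighm, the heavy chain of IgM, read 1049, 1083 and 1283. Jchain, which joins the units of secreted IgA and IgM, read 515, 226 and 193, with replicate 1 highest. Fcer2a, the low-affinity IgE receptor, read 249, 565 and 286, with replicate 2 highest. The brightest single-gene probe set named Igk, for the kappa light chain, read 533, 38.5 and 44.7 and was detected on replicate 1 alone. Another, detected on 3 arrays, did not show this difference, at 104.7, 96.4 and 79.4. The remaining ones were detected on no array and lay too low to show a direction, at 10.5, 9.2 and 5.3, and at 2, 1.2 and 3.5. Pax5, the B lineage factor, was detected on none, at 4.9, 11.1 and 16.7.

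Of 22 T cell markers 15 were detected on 3 arrays, 5 on some and 2 on none. The share on 3 arrays, 68.2%, was close to the 73.4% of all genes. Thy1, a surface antigen of T cells that other cells share, read 344, 384 and 395. Cd2, an adhesion receptor, read 259.8, 314 and 389. Il7r, the interleukin 7 receptor, read 279.9, 293 and 328. Cd4 was detected on no array, at 11, 11 and 6.6, and neither was Cd6, at 50.3, 56.3 and 42.4. No T cell marker detected on 3 arrays had a range over 1.

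Natural killer markers were detected on 3 arrays for 10 of 15, or 66.7%, near the 73.4% of all genes for so short a list. They were highest on replicate 3 in 10 of these 10, against 34.6% of all genes, and lowest on replicate 1 in 8, against 43.9%. Gzma, a granule protease that kills target cells, read 578, 720 and 806. Ccl5, a chemokine, read 591, 649 and 843. Nkg7, a granule protein, read 114, 188 and 199. The median deviations of the list were -0.21, 0.01 and 0.21. Klra8, an activating receptor, had the widest range, at 52.7, 100.3 and 113. Il2rb and Ccl3 were detected on no array.

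**Figure D2:**
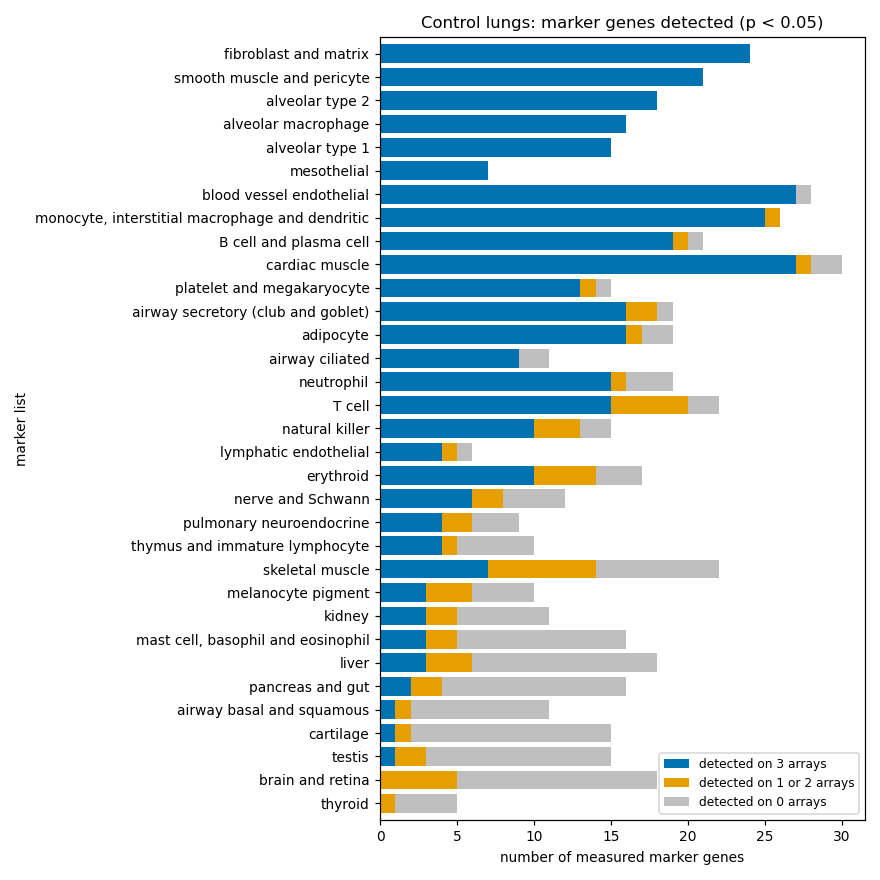
Number of measured marker genes of each of 33 cell type and tissue lists that were detected on 3, on 1 or 2, and on 0 of the control arrays, by a detection p below 0.05; lists are ordered by the share detected on 3. Fibroblast, smooth muscle, alveolar and mesothelial lists are complete, and brain, testis, thyroid, cartilage and basal cell lists have almost no gene detected on 3.

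Lists chosen for other tissues were mostly undetected, although some of their members, such as Cyp2e1, are expressed by the lung as well. Among all genes 73.4% were detected on 3 arrays and 20.5% on none. No gene of 18 brain and retina markers was detected on 3 arrays, and 13 were detected on none. The same counts were 1 and 12 of 15 for testis, 1 and 13 of 15 for cartilage, 2 and 12 of 16 for pancreas and gut, 3 and 12 of 18 for liver, and 3 and 6 of 11 for kidney. Cyp2e1, a P450 of liver that the lung also expresses, read 816, 581 and 518. Tff1, a trefoil peptide of mucosae, read 287, 268 and 333. Chad, a matrix protein of cartilage, read 435, 228 and 349. Of the kidney list, Cdh16, a cadherin, read 202, 311 and 236, and Lrp2, an endocytic receptor, read 254, 191 and 229. Albumin and genes defining cartilage and the endocrine pancreas were dim. Alb, albumin, was detected on 3 arrays at 37.7, 24.6 and 38.2. Col2a1, cartilage collagen, was detected on none, at 5.9, 1.9 and 3.6, and neither was Ins2, insulin, at 5.8, 11.8 and 21.3.

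Pigment cell genes bear on the baseline because the exosomes of the series come from a melanoma line. Of 10 measured, 3 were detected on 3 arrays, where 73.4% of all genes were. Mitf, the master regulator of melanocytes, which macrophages also express, read 364, 324 and 353. Gpnmb, a glycoprotein of melanosomes and macrophages, read 293, 286 and 338. Sox10, a factor of melanocytes and Schwann cells, read 77.6, 68.5 and 99.6. The genes specific to melanin synthesis were dim. Tyr, tyrosinase, was detected on 1 array, at 21.2, 13.9 and 6.3. Oca2 was detected on 2 arrays, at 18.7, 26.3 and 29.5. Tyrp1 was detected on 1 array, by a probe set other than the shown one. Dct, dopachrome tautomerase, was detected on none, at 21.8, 10.6 and 20.3, and neither were Slc45a2, Pmel and Mc1r.

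Of 5 Y-linked genes measured, 3 were detected on all 3 arrays. Eif2s3y, a translation factor, read 496, 539.5 and 776. Kdm5d, a histone demethylase, read 186, 214 and 240.2. Uty, another gene of the Y chromosome, read 206, 214 and 193. Xist, the RNA that silences an X chromosome, was detected on all 3 as well, at 33.9, 58.6 and 59.5. Sry, which determines male sex, was detected on none, at 4.3, 8.6 and 24.6, and neither was Usp9y, at 1.2, 1.9 and 13.1.

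Over the whole array, 15459 probe sets (68.3%) were detected on 3 arrays, 1692 (7.48%) on 1 or 2 and 5475 (24.2%) on none. By gene, where any probe set of the gene may count, the shares were 73.4%, 6.12% and 20.5% of 12393. Detection followed the signal. Median signals of the 3 classes were 398, 32.8 and 9.63, and the central 90% of the undetected probe sets reached up to 59.9, where that of the fully detected ones began at 48.1.

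A few undetected genes had far higher signals. Plekhh3 was the brightest, at 258, 274 and 280.3. Nacc1, a transcriptional repressor, read 226, 277 and 292. Clec16a, a regulator of mitophagy, read 261, 257 and 265. The others of the 10 brightest were Tuba8, Rrp9, Oxt, Fcgbp, Inpp5j, Zfp688 and Mfsd3, with mean log2 values down to 7.55. Oxt encodes oxytocin and Tuba8 an alpha tubulin. Replicate 1 was the lowest for 8 of these 10 genes.

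Genes whose shown probe set was detected on only some arrays included a few with large differences. Clca1, a secreted protein of goblet cells, was detected on 1 array and read 10.8, 13.3 and 132. Prg2, the major basic protein of eosinophils, read 25.4, 114 and 33.6. Nrgn, a calmodulin-binding protein also found in platelets, read 415, 584 and 188. Each of these had another array at its extreme: replicate 3 high for Clca1, replicate 2 high for Prg2 and replicate 3 low for Nrgn. Npas2 and Nfil3, both of the circadian clock, were highest on replicate 1. Npas2 read 84.7, 11.5 and 19.9. Nfil3 read 137, 33.7 and 50.1. Cmklr1, the chemerin receptor, had the same high array, at 53.3, 6.6 and 3.3. Igk, Tm6sf2, Plcb1 and Sema6a completed the 10 with the widest ranges in this class, although Igk and Plcb1 each had another probe set that was detected on 3 arrays.

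Spread between arrays was small for most transcripts. The median SD was 0.158 log2 units for probe sets detected on 3 arrays, and it fell from 0.204 in the dimmest of 5 equal classes of level to 0.121 in the brightest. A range over 1 was reached by 485 probe sets (3.14%). In 405 of the 485 the array that lay apart was replicate 1, above the others in 320 and below them in 85. Replicate 2 lay apart in 29 and replicate 3 in 51. Over all probe sets detected on 3 arrays, replicate 1 lay apart in 49.9%, replicate 2 in 22.8% and replicate 3 in 27.3%. With replicate 1 left out the median SD was 0.0960 and 36 probe sets had a range over 1.

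The 25 most variable genes had ranges from 1.61 to 3.21. Replicate 1 lay apart in 21 of them, high in 16 and low in 5, against 49.9% of all probe sets detected on 3 arrays. Heat shock and clock genes, described below, made up 6 of the 25: Hspa1b, Hspa1a, Hsph1, Arntl, Per3 and Dbp. Washc4, a subunit of the WASH complex on endosomes, read 397, 57.1 and 73.5. Spon2, a secreted matrix protein, read 334, 47.6 and 65.8. Bmpr2, a receptor for bone morphogenetic proteins, read 615, 209 and 177. In these 3 replicate 1 was far above a close pair, and for Washc4 the other probe sets had the same high array.

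Other patterns were seen in a few of the 25. Lsm7, an RNA-binding Sm-like protein, was lowest on replicate 1, at 181, 487 and 768, and so was the noncoding RNA Snhg11, at 123, 234 and 424. Saa3, an acute-phase apolipoprotein, was highest on replicate 2, at 68.7, 305 and 101. H2bc22, a histone H2B, was lowest on replicate 3, at 81.6, 81.6 and 13.7. Its deposited detection p was near the threshold on each array, at 0.046, 0.038 and 0.024. With an offset of 64 its range fell from 1.72 to 0.91. The rest were Sntb2, Prkg1, Lrat, Gatad2b, AY036118, Nr4a1, Marco, Nr2c2, Rgs18, Endod1, Thrsp and Ednrb. Of the 25 genes 10 had a further probe set detected on 3 arrays. In 6 of these at least 1 such probe set also had a range over 1 with the same array apart. Sntb2 was among the 6, but others of its probe sets detected on 3 arrays had ranges of 0.56 and 0.75. For Endod1, Ednrb, Nr2c2 and Thrsp none had a range over 1, although that of Thrsp had the same high array, at 171, 90.7 and 94.9. Without replicate 1, H2bc22, Saa3, Marco, Sntb2 and Rgs18 were the 5 of these genes still among the 25 most variable.

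**Figure D3:**
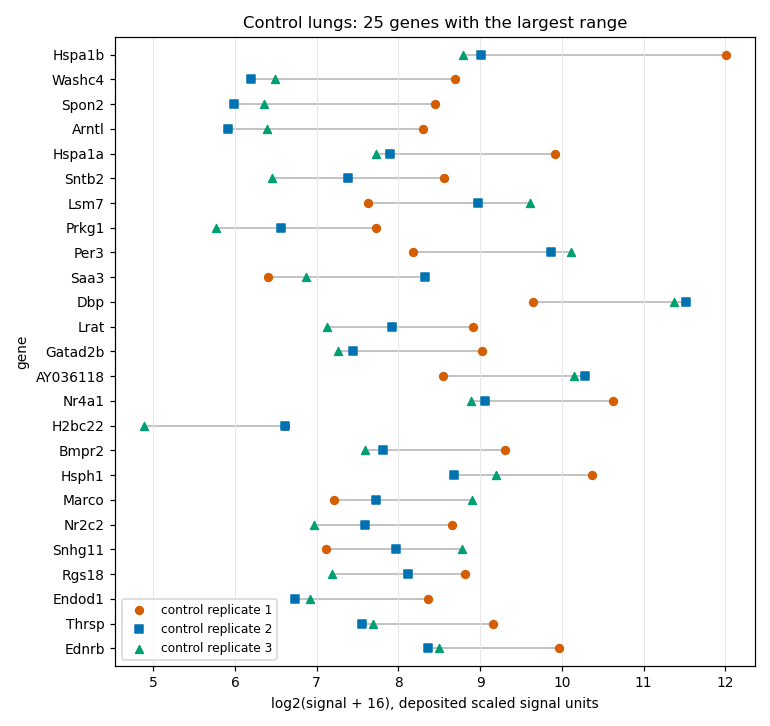
The 25 genes with the largest difference between the highest and the lowest control array, among genes detected on all 3, with log2(signal + 16) on the horizontal axis and 1 symbol for each array. Replicate 1 is far from a close pair of replicates 2 and 3 for most genes, to the right for Hspa1b and Arntl and to the left for Per3 and Dbp.

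The circadian clock is a loop of transcription factors that runs in nearly every cell, those of the lung included. Arntl (BMAL1) pairs with Clock or Npas2 and activates genes through E-boxes, among them the Per and Cry repressors, Nr1d1 and Nr1d2, and Dbp. Nr1d1 and Nr1d2 repress Arntl and Nfil3 at ROR elements, while Dbp, Tef and Hlf activate and Nfil3 represses at D-boxes.

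Promoters of 4 clock genes that differed between the arrays are shown because they hold the elements of this loop. Each runs from 250 bases before to 50 bases after the transcription start, from RefSeq on GRCm38.p6, 5′ to 3′ on the strand of the gene. Capitals mark matches to TAGGTCA, the core of a ROR element, in Arntl (chr7:113207261-113207560, plus strand) and Nfil3 (chr13:52980990-52981289, minus strand, match on the opposite strand), to the D-box TTATGTAA in Per3 (chr4:151044616-151044915, minus strand) and to the E-box CACGTG in Per1 (chr11:69098699-69098998, plus strand).
Arntl: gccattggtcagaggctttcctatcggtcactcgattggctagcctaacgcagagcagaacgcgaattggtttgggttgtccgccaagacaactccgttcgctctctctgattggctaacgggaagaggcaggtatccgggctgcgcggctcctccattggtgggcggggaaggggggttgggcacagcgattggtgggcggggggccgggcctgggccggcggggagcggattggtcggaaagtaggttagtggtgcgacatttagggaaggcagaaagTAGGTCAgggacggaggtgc
Nfil3: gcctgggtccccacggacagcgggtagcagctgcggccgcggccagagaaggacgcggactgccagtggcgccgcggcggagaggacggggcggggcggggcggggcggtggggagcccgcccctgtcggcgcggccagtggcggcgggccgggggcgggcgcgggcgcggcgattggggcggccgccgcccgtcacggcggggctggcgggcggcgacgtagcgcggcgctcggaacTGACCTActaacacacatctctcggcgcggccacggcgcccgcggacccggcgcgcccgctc
Per3: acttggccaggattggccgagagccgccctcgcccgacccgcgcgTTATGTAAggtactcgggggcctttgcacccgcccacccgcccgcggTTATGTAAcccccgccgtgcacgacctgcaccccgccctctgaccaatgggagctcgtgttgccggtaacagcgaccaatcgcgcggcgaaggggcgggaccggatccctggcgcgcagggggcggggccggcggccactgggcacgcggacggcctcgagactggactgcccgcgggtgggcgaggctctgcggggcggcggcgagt
Per1: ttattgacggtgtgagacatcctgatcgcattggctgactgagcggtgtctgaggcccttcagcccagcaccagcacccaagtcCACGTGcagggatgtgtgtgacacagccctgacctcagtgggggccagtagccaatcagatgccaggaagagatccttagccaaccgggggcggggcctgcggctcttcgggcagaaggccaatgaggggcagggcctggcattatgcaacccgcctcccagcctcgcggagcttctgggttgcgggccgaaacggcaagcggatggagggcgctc
Both strands were searched, and no match in these sequences overlapped another. Over 32851 mouse promoters of the same length, TAGGTCA was present in 2.61%, TTATGTAA in 0.938% and CACGTG in 7.15%. Of the 20 clock genes measured, 17 had a promoter in the table: the ROR core was in those of Arntl and Nfil3, the D-box in that of Per3, and the E-box in those of Per1, Tef, Cry1 and Bhlhe41. A match describes the letters in this window and shows no binding.

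Among the clock genes, Arntl, Npas2, Nfil3 and Clock were highest on replicate 1, and Per1, Per2, Per3, Dbp and Tef were lowest there. Arntl read 299, 44.5 and 68.2, a 5.20-fold difference between replicates 1 and 2. Per3 read 274, 915 and 1087. Per1 read 439, 1164 and 1167. Dbp, an output factor, read 785, 2929 and 2631. For Per3, Per1 and Dbp replicates 2 and 3 lay close together and replicate 1 far below both.

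The bright members of the list were also lowest on replicate 1. Nr1d2, a repressor, read 2552, 4992 and 4812. Tef, the partner of Dbp at D-boxes, read 1847, 3462 and 3597. Tsc22d3, a glucocorticoid-induced regulator with a daily rhythm, read 2682, 3751 and 3737. Among further members of the core loop, Per2 read 249, 556 and 654 and was lowest on replicate 1, and Clock read 735, 412 and 406 and was highest there. Cry2, a repressor, was lowest there, at 311, 559 and 591. Rora, which activates at ROR elements, was level, at 1016, 999.6 and 957. Of the 17 members detected on 3 arrays, 5 had a range over 1, against 1.70% of all such genes. Replicate 1 was lowest in 14, against 43.9%. The median deviations were -0.38, 0.27 and 0.15, and without replicate 1 those of the other 2 arrays lay 0.0068 apart. No source used here gives the hour at which the lungs were taken.

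Heat shock proteins are chaperones that refold damaged proteins and are induced by the factor Hsf1 through arrays of GAA and TTC units. All 21 measured members were detected on 3 arrays, and replicate 1 was highest in 19 of them, against 35.5% of all genes. Hspa1b, an inducible Hsp70, read 4109, 499 and 429, a 9.28-fold difference between replicates 1 and 3 and the largest range among all genes whose shown probe set was detected on 3 arrays. Its other 2 probe sets had the same high array, at 1995, 177 and 179 for the first and 2472, 273 and 246 for the second. Hspa1a read 948, 223 and 196, but Hspa1a and Hspa1b are near-identical copies, and their probe sets may read both.

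The promoter of Hspa1b (chr17:34959189-34959488, minus strand, RefSeq on GRCm38.p6, 5′ to 3′ on the strand of the gene) is shown because of this range. Capitals mark a match to GAANNTTC, an inverted pair of the units that Hsf1 binds.
Hspa1b: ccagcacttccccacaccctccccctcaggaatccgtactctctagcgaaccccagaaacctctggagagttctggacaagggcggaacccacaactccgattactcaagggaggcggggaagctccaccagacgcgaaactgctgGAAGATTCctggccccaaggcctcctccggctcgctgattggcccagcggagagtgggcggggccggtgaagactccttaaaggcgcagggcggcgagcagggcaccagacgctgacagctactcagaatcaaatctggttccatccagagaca
GAANNTTC reads the same on both strands and was present in 7.86% of the 32851 promoters. Of the heat shock genes 18 had a promoter in the table and 11 of these held it, among them Hspa1a, whose window was identical to that of Hspa1b at 296 of 300 bases. The match is a description of these letters.

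Other chaperones differed by less than Hspa1b. Hsph1, which works with Hsp70 as an exchange factor, read 1312, 394 and 568. Dnajb1, an Hsp40 that delivers clients to it, read 2055, 968 and 837. With both Hsp70 genes these made the 4 members with a range over 1, against 1.70% of genes detected on 3 arrays. The constitutive Hspa8 read 10437, 7913 and 9052, and Hsp90aa1 read 5449, 4199 and 4439, with smaller ranges of 0.40 and 0.37. The exceptions to the high replicate 1 were Hsp90b1, the Hsp90 of the endoplasmic reticulum, at 4993, 5308 and 5374, and the small heat shock protein Cryab, at 3819, 3859 and 4255.

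**Figure D4:**
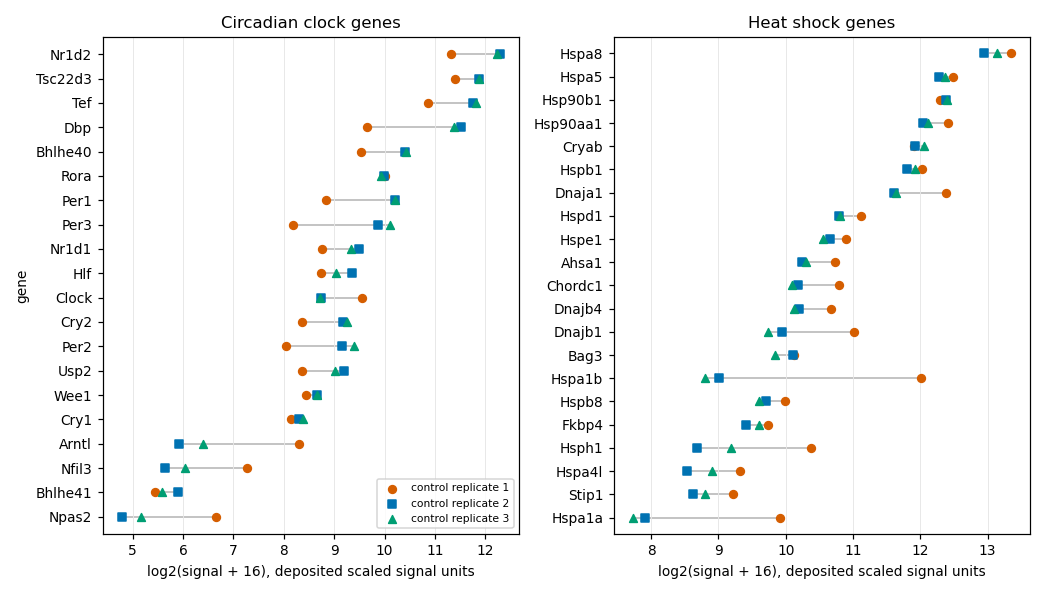
The 20 measured clock genes (left) and 21 heat shock genes (right) in order of their mean, with log2(signal + 16) on the horizontal axis and 1 symbol for each control array. Replicate 1 lies to the left for Per3, Dbp, Per1 and Per2, to the right for Arntl, Npas2, Nfil3 and Clock, and to the right for 19 of the heat shock genes.

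Immediate early genes, transcription factors and signalling proteins that cells switch on within minutes of a stimulus, differed in part of the list. Of 27 measured, 22 were detected on 3 arrays, where 73.4% of all genes were. A range over 1 was seen in 4, against 1.70% of genes detected on 3 arrays. Replicate 1 was highest in each of these 4: Nr4a1, given above, Fos, Egr1 and Atf3. Fos read 2235, 779.6 and 763. Egr1 read 3391, 2093 and 1353. Atf3 read 287, 142 and 117. Jund and Ier3, the brightest members, were close to level, with ranges of 0.14 and 0.24. The median deviations of the list were 0.15, -0.03 and -0.12. Egr3, Fosl1 and Nr4a3 were detected on no array.

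All 17 glucocorticoid-responsive and metallothionein genes were detected on 3 arrays, and 3 had a range over 1, against 1.70% of all such genes. Cdkn1a, an inhibitor of the cell cycle, read 1186, 469 and 517. Pdk4, which restrains glucose oxidation, read 294, 124 and 150.2. Both were highest on replicate 1, whereas Per1, also a member, was lowest there. Klf9, a transcription factor, was the brightest, at 5886, 6517 and 7097. Fkbp5, a regulator of the glucocorticoid receptor, read 251, 262 and 343, with replicate 3 highest.

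Of the 38 lists with at least 5 members detected on some array, 6 had median deviations that spanned more than 0.5 log2 units over the 3 arrays. They were the mesothelial, clock, cardiac muscle, platelet, erythroid and adipocyte lists. Over all genes the median deviations spanned 0.03. Under other offsets, quantile normalisation, no filter on detection and averaged probe sets, the mesothelial and cardiac lists stayed over 0.5. The erythroid span of 0.54 fell to 0.27 with an offset of 64 and to 0.20 with no filter, and the adipocyte span of 0.52 fell to 0.27 with an offset of 64. Without replicate 1 the platelet and cardiac lists were those over 0.5, at 0.64 and 0.54. Without replicate 2 these were the mesothelial, cardiac and clock lists, at 0.77, 0.62 and 0.53, and without replicate 3 the clock list alone, at 0.67.

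Mesothelial cells cover the surface of the lung. The 7 measured markers had median deviations of 0.41, -0.15 and -0.30. Upk3b, a uroplakin, read 1281, 1103 and 627. Msln, mesothelin, read 693, 547 and 344. Gpm6a, a membrane glycoprotein, read 1917, 1214 and 1107. These 3 and Cldn15, a claudin, at 291, 219 and 164, were highest on replicate 1 and lowest on replicate 3. Krt8 and Krt19, simple epithelial keratins shared with the rest of the lung epithelium, were highest on replicate 3. Krt8 read 2960.2, 2598 and 3096. Krt19 read 2062, 1937 and 2763.

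Fat cell genes were highest on replicate 1 in 9 of the 16 detected on 3 arrays, against 35.5% of all genes. They were lowest on replicate 2 in 11, against 26.8%. Adipoq, adiponectin, which adipocytes secrete, read 815, 259 and 257. Car3, an anhydrase abundant in fat and muscle, read 5073, 1985 and 1738. Thrsp, a regulator of fat synthesis, read 557, 171 and 190.2. These and Cidea, a lipid droplet protein, at 83.4, 31.8 and 42.1, were among the 5 members with a range over 1. The summed signal of the 19 measured markers was 19011, 13577 and 14143, most of it from Car3, Lpl and Fasn. Lpl, lipoprotein lipase, which macrophages also express, was level, at 3762, 3679.8 and 3786, and so was Fasn, fatty acid synthase, at 3219, 2843 and 3093. Lep, leptin, was detected on no array, at 14.8, 3.3 and 1.5, and neither was Ucp1, at 4.9, 0.7 and 2.3.

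Cardiac muscle markers were detected on 3 arrays for 27 of 30, with a summed signal of 25370.2, 23694 and 16533. In mice heart muscle extends along the pulmonary veins into the lung. Actc1, cardiac actin, read 4641, 4036 and 2651. Myl7, the atrial light chain, read 3516, 3040 and 2061. Myh6, the alpha myosin heavy chain, read 2009, 2269 and 1555. Replicate 3 was lowest in 22 of the 26 whose shown probe set was detected on 3 arrays, against 29.3% of all genes. Myl2, the ventricular light chain, was detected on no array, at 8.1, 12.6 and 5.2, and neither was Nppb, a natriuretic peptide, at 14.1, 22.3 and 14.6.

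Trdn, triadin, had the widest range of the cardiac list, at 96.9, 83 and 33.2. Ckm, muscle creatine kinase, read 412, 319 and 181. Smpx, a small muscle protein, read 343, 232 and 149. Replicate 3 was lowest for these 3. Nppa, Myh7, Ryr2 and Kcnj3 had replicate 3 as the highest array. Of 22 skeletal muscle genes 7 were detected on 3 arrays and 8 on none, among these Acta1, skeletal actin, at 33.3, 28 and 31.1.

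Platelet and megakaryocyte markers were detected on 3 arrays for 13 of 15. Replicate 3 was lowest in 10 of the 13, against 29.3% of all genes. Pf4, platelet factor 4, read 1169, 1327 and 669. Ppbp, the precursor of a platelet chemokine, read 1914, 1862 and 1038. Gp9, part of the receptor for von Willebrand factor, read 281, 275 and 103. Rgs18, a regulator of G protein signalling, was lowest on the same array, at 433, 261 and 129.5. Gng11, a G protein subunit, was less different, at 4167, 4129 and 3137. Vwf, von Willebrand factor, which endothelium makes as well, was level, at 3176, 3205 and 3322. The summed signal of the list was 13325, 13658 and 9911, most of it from Gng11 and Vwf. Itgb3 was detected on none.

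Red cell genes were lowest on replicate 3 in 7 of the 10 members detected on 3 arrays, against 29.3% of all genes. Slc4a1, the anion exchanger of the red cell membrane, read 284, 332 and 185. Hemgn, a nuclear protein of erythroid cells, read 92.7, 113 and 56.9. Ermap, a membrane protein, read 48.1, 109 and 47. These 3 were highest on replicate 2. Alas2, the first enzyme of haem synthesis in red cells, was highest on replicate 1, at 845, 511 and 436. Of the shared globin probe sets given above, the bright alpha and the beta globin ones were lowest on replicate 1, and the dimmest alpha globin one was lowest on replicate 3.

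**Figure D5:**
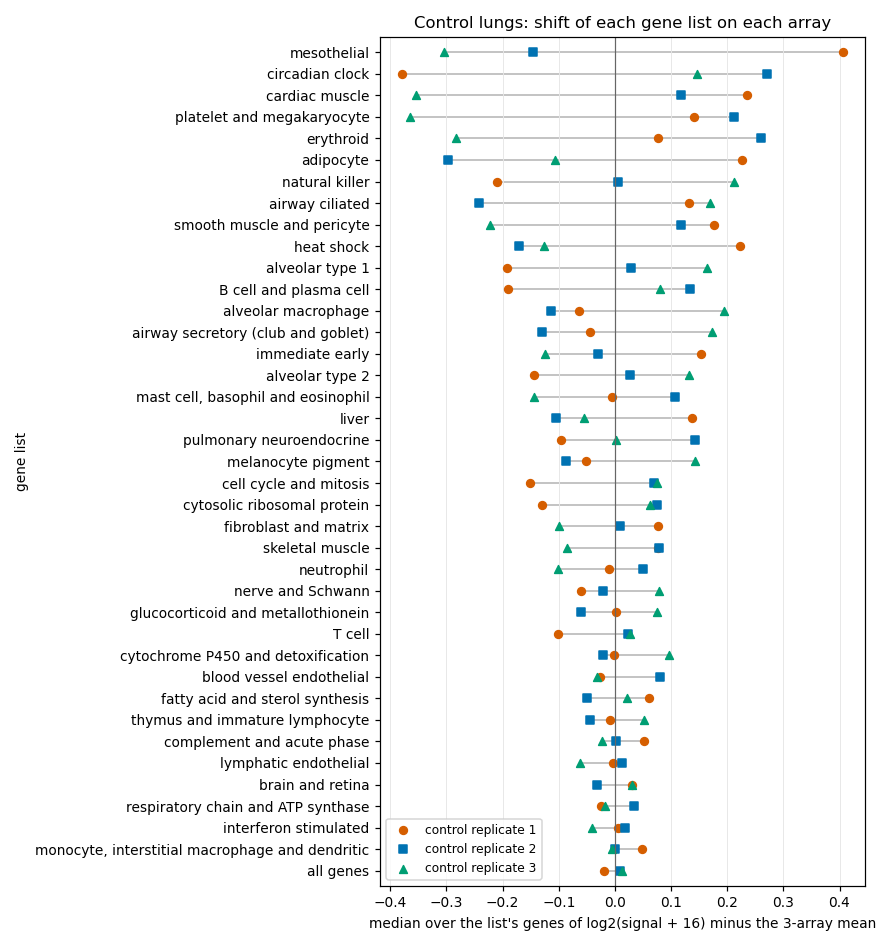
Median over the genes of each list of log2(signal + 16) minus the mean of the 3 control arrays, 1 symbol per array, for 38 lists and for all genes at the bottom, in order of their span. Mesothelial, clock, cardiac, platelet, erythroid and adipocyte lists span more than 0.5. Replicate 1 is at an end of the span for the mesothelial, clock, cardiac and adipocyte lists.

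Detoxifying enzymes were bright as a group. Of 34 genes of cytochrome P450 and conjugating enzymes, 32 were detected on 3 arrays, at a median of 11.16 log2 units. Aldh1a1, a retinaldehyde dehydrogenase, read 7911, 8971 and 9701. Cyp4b1, a lung P450, read 7309.9, 7134 and 7477. The members with a range over 1 were Cyp1a1 and Sult1d1. Cyp1a1, which aromatic hydrocarbons induce, was highest on replicate 1, at 2012, 1036 and 896. Sult1d1, a sulfotransferase, was lowest on replicate 2, at 588, 230.1 and 440.4. Cyp4a12a and Cyp2b19 were detected on no array.

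Lipid synthesis, which supplies surfactant, was detected on 3 arrays for 26 of 27 genes. After Scd1 came Scd2, another desaturase, at 5889.9, 6178 and 6880. Elovl1, an elongase of fatty acids, read 5288, 6294 and 6847. Elovl5, another elongase, read 3693, 4574 and 4589.7. All 3 were highest on replicate 3. Acaca, acetyl-CoA carboxylase, was detected on some arrays, at 13.8, 7.3 and 20.4. Thrsp, given above, was the only member with a range over 1, and the median deviations of the list spanned 0.11.

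All 61 genes on the list of respiratory chain and ATP synthase subunits were detected on 3 arrays, with a median range of 0.18 and none over 1. Cox7a2, a subunit of cytochrome c oxidase, was the brightest of those listed, at 6886, 7183 and 7039. Cox8b, a heart and muscle subunit, had the widest range, at 374, 364 and 229.8. Cox7a1, another such subunit, read 291, 311 and 215. Both muscle subunits had replicate 3 lowest, as the cardiac list had.

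The 35 measured cytosolic ribosomal proteins were all detected on 3 arrays, at a median of 12.82 log2 units. Replicate 1 was lowest in 31, against 43.9% of all genes, and the median deviations were -0.13, 0.08 and 0.06. After quantile normalisation the span of these deviations fell from 0.21 to 0.038, and without replicate 1 it was 0.0035. Rpl37 had the widest range, at 504, 603 and 889, with replicate 3 highest. Rpl14 was an exception with replicate 1 highest, at 169.7, 124 and 136.

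Proliferation genes were dim. Of 35 measured, 29 were detected on 3 arrays, where 73.4% of all genes were, at a median of 7.13 log2 units. Stmn1, which destabilises microtubules, read 2869, 3365 and 2999. Pcna, the sliding clamp of DNA replication, read 2075, 2015 and 2082. Replicate 1 was lowest in 22 of the 28 whose shown probe set was detected on 3 arrays, against 43.9% of all genes. Birc5, survivin, had the widest range, at 59.8, 115 and 113, and Cdc20, an activator of the anaphase-promoting complex, the next, at 206, 344 and 348. Tyms, Kif20a, Ccne1 and Bub1b were detected on no array.

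Interferon-stimulated genes were detected on 3 arrays for 25 of 28, where 73.4% of all genes were. None had a range over 1, against 1.70% of genes detected on 3 arrays. Psmb8, an immunoproteasome subunit, was the brightest, at 1515, 1404 and 1233. Ifit3, an antiviral protein, had the widest range, at 652, 972 and 1306, and Irf7, the regulator of type I interferon, the next, at 216, 399.6 and 348. Replicate 1 was lowest for both. The chemokines Cxcl10, at 70.5, 79.1 and 55.9, and Cxcl9, at 11.6, 11.6 and 11.6, were detected on no array, and neither was Mx2. Among 28 complement and acute-phase genes, Hp, haptoglobin, was the brightest, at 6755, 7276 and 8123. Serping1, the C1 inhibitor, read 5825, 5982 and 5664. Saa3, given above, was the only one of the 22 detected on 3 arrays with a range over 1. Tnf, the inflammatory cytokine, was detected on no array, at 3.1, 6.3 and 35.9.

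At the other end were genes that hardly differed. Among genes above 10 log2 units the smallest range was that of Tcta, at 1674, 1680.2 and 1678. The next were Tsn, translin, which binds RNA and DNA, Snx3, a sorting nexin, Saraf, which regulates calcium entry, and Atp6v0d1, a subunit of the vacuolar proton pump. Snx3 read 3708, 3728 and 3727. Atp6v0d1 read 3034, 3012 and 3019. The 5 ranges lay between 0.0052 and 0.010 log2 units.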

How the data were processed

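Affymetrix arrays measured lung RNA of 3 control samples of the series, and the other samples were not used. Per the file headers, the deposited files hold for each of 22690 probe sets a signal, a scaled intensity, with a Present or Absent call and its detection p-value. The software and its settings, not given in the sources used here, left all 3 arrays with the same trimmed mean. The labels' protocol names a larger whole-genome array than the files hold, and the number of probe sets was taken from the files. Of these, 64 control probe sets were left out, which leaves 22626. Probe sets were named from the platform annotation: 20393 have 1 symbol, 691 several and 1606 none, and only those with 1 symbol stand for a gene.

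Values were analysed as log2(signal + 16). A gene is shown by its probe set with the highest mean, and in counts of detected genes it is classed by its most often detected probe set, at a detection p below 0.05. Ranges, and the genes chosen by range, use the shown probe set and its own detection. Of 1004 symbols on 45 lists, 847 had a probe set. The members and lists were chosen with earlier results of these data known. Named are the 25 brightest genes, the 25 with the widest range among genes detected on 3 arrays, the 10 with the widest range among those detected on some, the 10 brightest undetected and the 5 least variable above 10 log2 units. Of each list these are the 4 brightest, the 4 with the widest range and the undetected members. Rpl39, Abca3, Spdef, Agr2, Siglecf, Tyr, Oca2, Tyrp1, Clock, Per2, Cry1, Cry2, Rora, Bhlhe41, Cryab, Fkbp5, Acaca, Nppa, Myh7, Ryr2, Kcnj3 and, among shared probe sets, the globins were named after their values were seen. The samples form 1 group, so no test between groups was run. The alternatives were other offsets and detection thresholds, quantile normalisation, no filter on detection, other ways to join probe sets, and leaving out each array. The scripts recovered shifts built into 1 array of simulated data, whose noise was smaller than the median SD of these data. Python 3.11.15, numpy 2.4.6 and pandas 2.3.3 were used.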

Additional observations from a re-analysis of the deposited data

How the results depend on the processing

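Counting genes, each detected on an array where any of its probe sets was, so that different probe sets may serve on different arrays, gave 9106 detected on 3 arrays, 751 on some and 2536 on none, against 15459, 1692 and 5475 probe sets. With 1 array left out, 997 to 1235 probe sets were detected on some but not all of the others. The median SD, 0.158 over the 3 arrays, lay between 0.0960, without replicate 1, and 0.156. The count of probe sets with a range over 1, 485, was 746 with an offset of 1, 237 with an offset of 64 and 1052 with no filter on detection, and it lay between 36, without replicate 1, and 373 when an array was left out. Without replicate 3 it was 299. The count of lists over 0.5, 6, was 3 with an offset of 64 and between 1, without replicate 3, and 3 when an array was left out. Without replicate 1 it was 2. Of the 25 most variable genes, 16 stayed in the list with no filter on detection, and between 5, without replicate 1, and 20 when an array was left out. Without replicate 3 it was 16. Fewer arrays or probe sets by themselves lower or raise such counts, and the cause was not tested further. Detection thresholds of 0.04 and 0.01 gave 15240 and 13375 probe sets on 3 arrays. After quantile normalisation 472 had a range over 1 and 5 lists were over 0.5, and 24 of the 25 brightest and 22 of the 25 most variable genes were kept. No paired analysis was possible because the samples form 1 group. Precision is limited by the number of arrays, 3.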
